A study of Homo sapiens with 9 samples.

Results

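The SLC25 family comprises the mitochondrial carriers, and its members were taken here as every gene whose symbol in the deposited count table is SLC25A followed by a number, with nothing after it. That gave 48 of the 60683 genes listed. Testing took genes with 10 or more counts in all, 22672 genes, and 46 members were among them. SLC25A31 and SLC25A52 were not. The RNA came from Hep3B, an established human liver cancer cell line, kept for 24 hours in one of 3 conditions with 3 replicate wells each. The groups were vehicle (DMSO) at 20% O2, vehicle at 1% O2, and 32-134D, a small molecule made to inhibit the hypoxia-inducible factors (HIFs), at 1% O2. All libraries came from this 1 tumour line, which limits them as a model of liver, and none analysed here had 32-134D at 20% O2, so the compound is compared with vehicle at 1% O2 and with vehicle at 20% O2 only. Measured values are CPM (counts of a gene scaled to a common library size) after TMM scaling, which corrects each library's size for differences in composition, and values in several libraries are given in the order of replicates 1, 2 and 3.

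Carriers of this family lie in the inner mitochondrial membrane, apart from a few in the outer membrane or in peroxisomes. They move nucleotides, phosphate, carboxylates, amino acids, cofactors and metal ions between cytosol and matrix, most of them as an exchange of one solute for another. Each is built from repeats of a pair of membrane-spanning helices, and the carrier opens to one side of the membrane at a time. In liver cells the family connects the urea cycle, gluconeogenesis, fatty acid oxidation and heme synthesis inside the matrix with the reactions of the cytosol.

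The libraries held 6013980 to 40549699 counts. Liver markers (AFP, ALB, APOA1, TTR, SERPINA1, TF and FGB) summed to 8655 to 15990 CPM in every library, and all 7 of 7 were detected. Markers of other cell types summed to 3.80 to 12.1 CPM, with VWF and ACTA2 at 0 in every library, PTPRC at 7 counts in all, and the rest from CD68, PECAM1 and COL1A1. Replicate 3 of 32-134D stood apart from its group. It had 8655 CPM of liver markers against 13490 and 13860 CPM in replicates 2 and 1, and 12.1 CPM of the other markers against 6.75 and 6.83 CPM. Of the liver markers AFP was called lower under hypoxia and TTR, TF and FGB lower with 32-134D, and of the others PECAM1 and COL1A1 were called lower under hypoxia and higher with 32-134D. With 32-134D TTR was at 37.9, 34.5 and 9.79 CPM, TF at 1545, 1505 and 584 CPM and FGB at 33.5, 33.1 and 6.86 CPM. Replicate 3 was thus far below the other 2, and DESeq2 called 1 of the 7 liver markers lower there. The part of these shifts in the results was not tested, and counts of members called with 32-134D are also given without replicate 3. In these bulk libraries, fewer cells with an RNA and less of it per cell cannot be told apart.

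HIFs bind DNA at the core ACGTG or GCGTG. These promoters are printed because SLC25A36 and SLC25A21 had the largest called rise and fall under hypoxia among members with more than 3 counts in each group and a listed promoter (a choice made after the counts were seen). SLC25A4, SLC25A5 and SLC25A6 are the adenine nucleotide carriers, of which SLC25A4 and SLC25A6 were called higher and SLC25A5 was not. Each runs from 250 bases before to 50 bases after the start of the gene, 5′ to 3′ on the strand of the gene, in the RefSeq table for GRCh38.p14. Capitals mark ACGTG or GCGTG read on either strand, the reverse strand appearing as CACGT or CACGC. The positions are chr3:140941586-140941885 on the plus strand for SLC25A36, chr14:37172557-37172856 on the minus strand for SLC25A21, chr4:185143016-185143315 on the plus strand for SLC25A4, chrX:119468194-119468493 on the plus strand for SLC25A5 and chrX:1392064-1392363 on the minus strand for SLC25A6.
SLC25A36: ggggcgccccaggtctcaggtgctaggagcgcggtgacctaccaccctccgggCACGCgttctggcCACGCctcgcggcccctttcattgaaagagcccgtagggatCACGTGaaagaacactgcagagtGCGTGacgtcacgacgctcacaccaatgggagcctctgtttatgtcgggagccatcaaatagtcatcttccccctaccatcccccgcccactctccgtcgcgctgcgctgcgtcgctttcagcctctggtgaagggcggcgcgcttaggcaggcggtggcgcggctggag
SLC25A21: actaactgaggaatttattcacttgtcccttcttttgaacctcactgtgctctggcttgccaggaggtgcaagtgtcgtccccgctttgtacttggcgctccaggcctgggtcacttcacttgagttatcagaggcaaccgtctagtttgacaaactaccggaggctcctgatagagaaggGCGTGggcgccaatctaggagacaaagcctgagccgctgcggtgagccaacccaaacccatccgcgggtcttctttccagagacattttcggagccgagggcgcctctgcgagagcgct
SLC25A4: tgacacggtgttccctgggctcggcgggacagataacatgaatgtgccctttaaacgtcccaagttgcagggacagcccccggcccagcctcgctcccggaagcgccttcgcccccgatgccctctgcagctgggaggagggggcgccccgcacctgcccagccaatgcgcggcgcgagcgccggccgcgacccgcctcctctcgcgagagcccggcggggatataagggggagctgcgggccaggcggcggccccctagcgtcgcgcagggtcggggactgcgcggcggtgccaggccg
SLC25A5: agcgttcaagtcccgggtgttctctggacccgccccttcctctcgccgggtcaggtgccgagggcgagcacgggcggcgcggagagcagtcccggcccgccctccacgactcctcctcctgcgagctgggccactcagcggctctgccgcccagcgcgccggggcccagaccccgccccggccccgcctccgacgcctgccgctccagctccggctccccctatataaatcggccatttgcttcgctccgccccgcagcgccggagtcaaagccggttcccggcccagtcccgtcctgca
SLC25A6: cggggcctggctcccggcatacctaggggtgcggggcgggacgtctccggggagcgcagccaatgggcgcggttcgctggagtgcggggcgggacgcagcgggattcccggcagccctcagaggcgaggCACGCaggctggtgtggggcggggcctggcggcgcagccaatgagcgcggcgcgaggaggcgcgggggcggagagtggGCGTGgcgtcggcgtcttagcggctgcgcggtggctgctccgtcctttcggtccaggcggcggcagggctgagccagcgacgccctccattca

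The SLC25A36 promoter held 5 matches, 2 of ACGTG and 3 of GCGTG, where the palindrome CACGTG counts on both strands. SLC25A6 had 2 matches of GCGTG, SLC25A21 had 1, and SLC25A4 and SLC25A5 had 0. Over the family, 40 of the 48 members had at least 1 promoter in the table, 50 promoters in all, and 41 of the 50 (82.0%) held ACGTG or GCGTG, against 48.4% of all 35116 promoters of the same length, whatever the kind of gene. Counted by gene, with a gene counted if any of its promoters matched, 34 of the 40 members (85.0%) held the motif, against 52.4% of 27305 genes. The motif was in 8 of 13 promoters of members called higher under hypoxia (61.5%), in 7 of 8 of those called lower (87.5%) and in 24 of 27 of those tested and not called (88.9%). By member these were 8 of 10, 6 of 7 and 18 of 21. These letters are a description of the windows and not a record of binding, and SLC25A4, with 0 matches, was among the members called higher.

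Between genes, levels were compared as CPM per kilobase (kb) of the longest principal transcript in GENCODE 29. At 20% O2 the highest members were SLC25A5, the adenine nucleotide carrier typical of dividing cells, at 186 ± 14.5 CPM per kb (SD, n = 3) and SLC25A3, which brings phosphate into the matrix, at 185 ± 10.9 CPM per kb. These 2 did not differ beyond their spread. SLC25A1, the citrate carrier, followed at 105 ± 5.27 CPM per kb and SLC25A39, linked to glutathione uptake, at 104 ± 3.01 CPM per kb. With this length these 2 also did not differ beyond their spread. SLC25A6 was next at 85.5 ± 3.83 CPM per kb, and SLC25A23 and SLC25A29 followed at 44.1 ± 3.46 and 44.1 ± 1.14 CPM per kb. In vehicle at 1% O2 SLC25A3 came first at 264 ± 6.80 CPM per kb and SLC25A5 second at 224 ± 20.9 CPM per kb, and SLC25A6 followed at 141 ± 15.1 CPM per kb. With 32-134D SLC25A3 and SLC25A5 were at 205 ± 6.07 and 199.8 ± 10.6 CPM per kb and did not differ beyond their spread. The order depends on the length used. Over the union of all annotated exons, which is 8896 bases for SLC25A3 against 1678 bases of principal transcript, SLC25A5 was first in all 3 groups and SLC25A3 had rank 5. At 20% O2 SLC25A1 was then at 82.5 ± 4.14, SLC25A6 at 81.4 ± 3.65 and SLC25A39 at 47.5 ± 1.37 CPM per kb. SLC25A23 was at 31.1 ± 2.44 and SLC25A29 at 14.1 ± 0.366 CPM per kb.

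**Figure D1:**
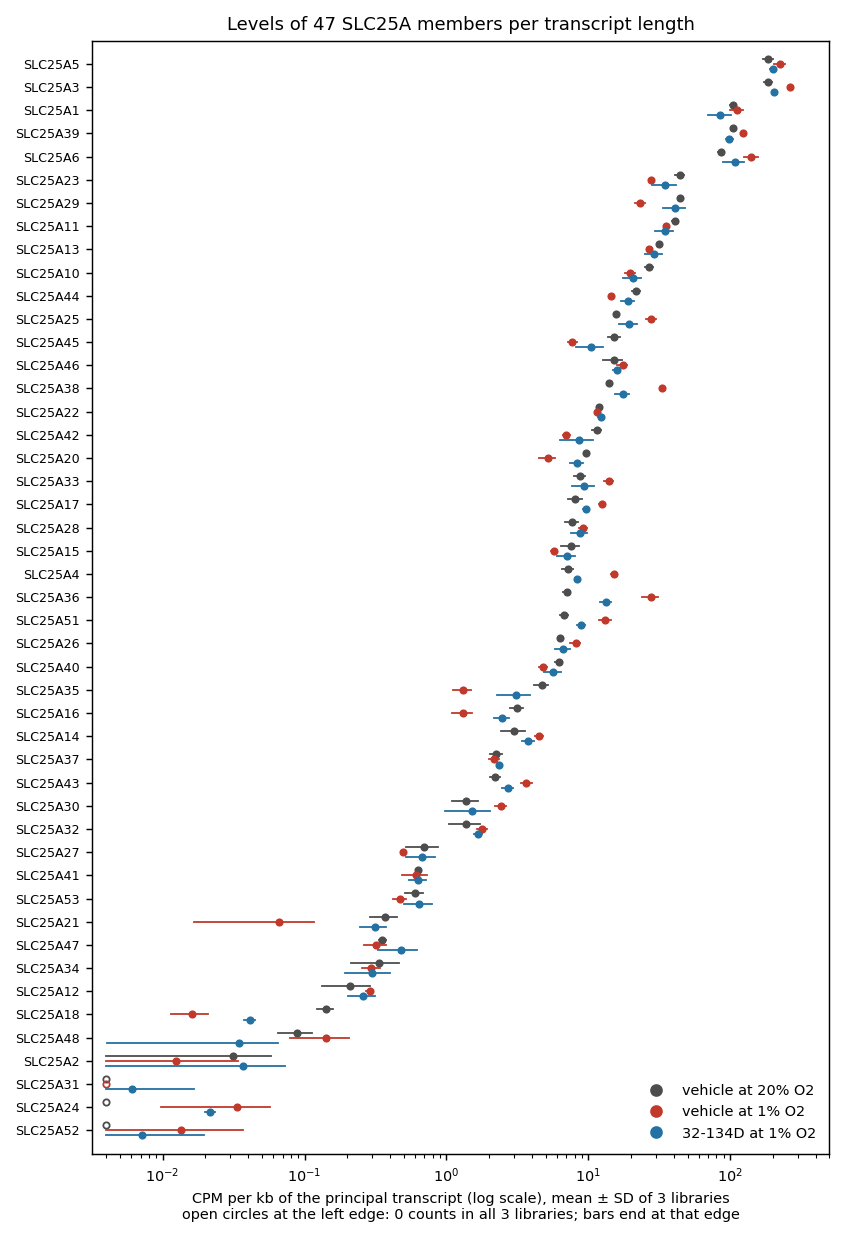
CPM per kb of the principal transcript (log axis) for 47 members, ordered by the level in vehicle at 20% O2, with points at the mean and lines at ± SD of 3 libraries per group and open circles where all 3 libraries had 0 counts. SLC25A5 and SLC25A3 are at the top in every group, and SLC25A36, SLC25A38, SLC25A35 and SLC25A21 show wide gaps between vehicle at 1% O2 and the other groups.

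The family took a small and steady part of each library, 0.218% to 0.236% of all counts. In CPM its sum was 2120 to 2203 in vehicle at 20% O2, 2447 to 2619 in vehicle at 1% O2 and 2094 to 2243 with 32-134D, so the sums of vehicle at 1% O2 lay above those of both other groups. The percentages of raw counts did not separate the groups in this way, with 0.223% to 0.235% at 20% O2 and 0.228% to 0.236% in vehicle at 1% O2. The 5 most counted members held 48.3% to 56.5% of the family's counts. Between 37 and 40 members exceeded 1 CPM in each library, and 44 to 47 had at least 1 count. Among the rare members, SLC25A31, the adenine nucleotide carrier of testis, had 1 count in all 9 libraries, SLC25A52, a relative of the NAD carrier, had 3 counts, and SLC25A2, the second ornithine carrier, had 10 counts.

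Under hypoxia the family moved in both directions. Of 46 members tested, 12 were called higher in vehicle at 1% O2 than in vehicle at 20% O2, 9 were called lower and 25 were not called. A call needed a Benjamini-Hochberg adjusted p (FDR) below 0.05 in edgeR's quasi-likelihood test and a fold change above 1.5. Of all 22672 genes tested, 19.5% were called higher and 20.3% lower, so the members' counts lay near those of the background. The members' median log2 fold change was 0.022, beside 0.001 for all genes. Scaling by total counts in place of TMM moved the median of all genes to -0.21 and that of the members to -0.19. It turned the split of members into 7 higher and 13 lower. Of all 22672 genes, 3081 were then called higher and 5848 lower.

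With 32-134D at 1% O2, compared with vehicle at 1% O2, 5 of the 46 members were called higher and 5 lower, and 36 were not called. Of all genes, 16.2% were called higher and 13.7% lower. The median of the members was -0.057 and that of all genes -0.012. With scaling by total counts the split was 8 higher and 3 lower, and the median of all genes moved to 0.17. Of all 22672 genes, 4755 were then called higher and 1847 lower. Without replicate 3 of 32-134D, 7 members were called higher and 4 lower, beside 3711 and 3144 of 22282 genes tested. Hypoxia and 32-134D are compared through the same libraries of vehicle at 1% O2, so the changes of a member in the 2 comparisons are not independent of each other and are only set side by side.

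**Figure D2:**
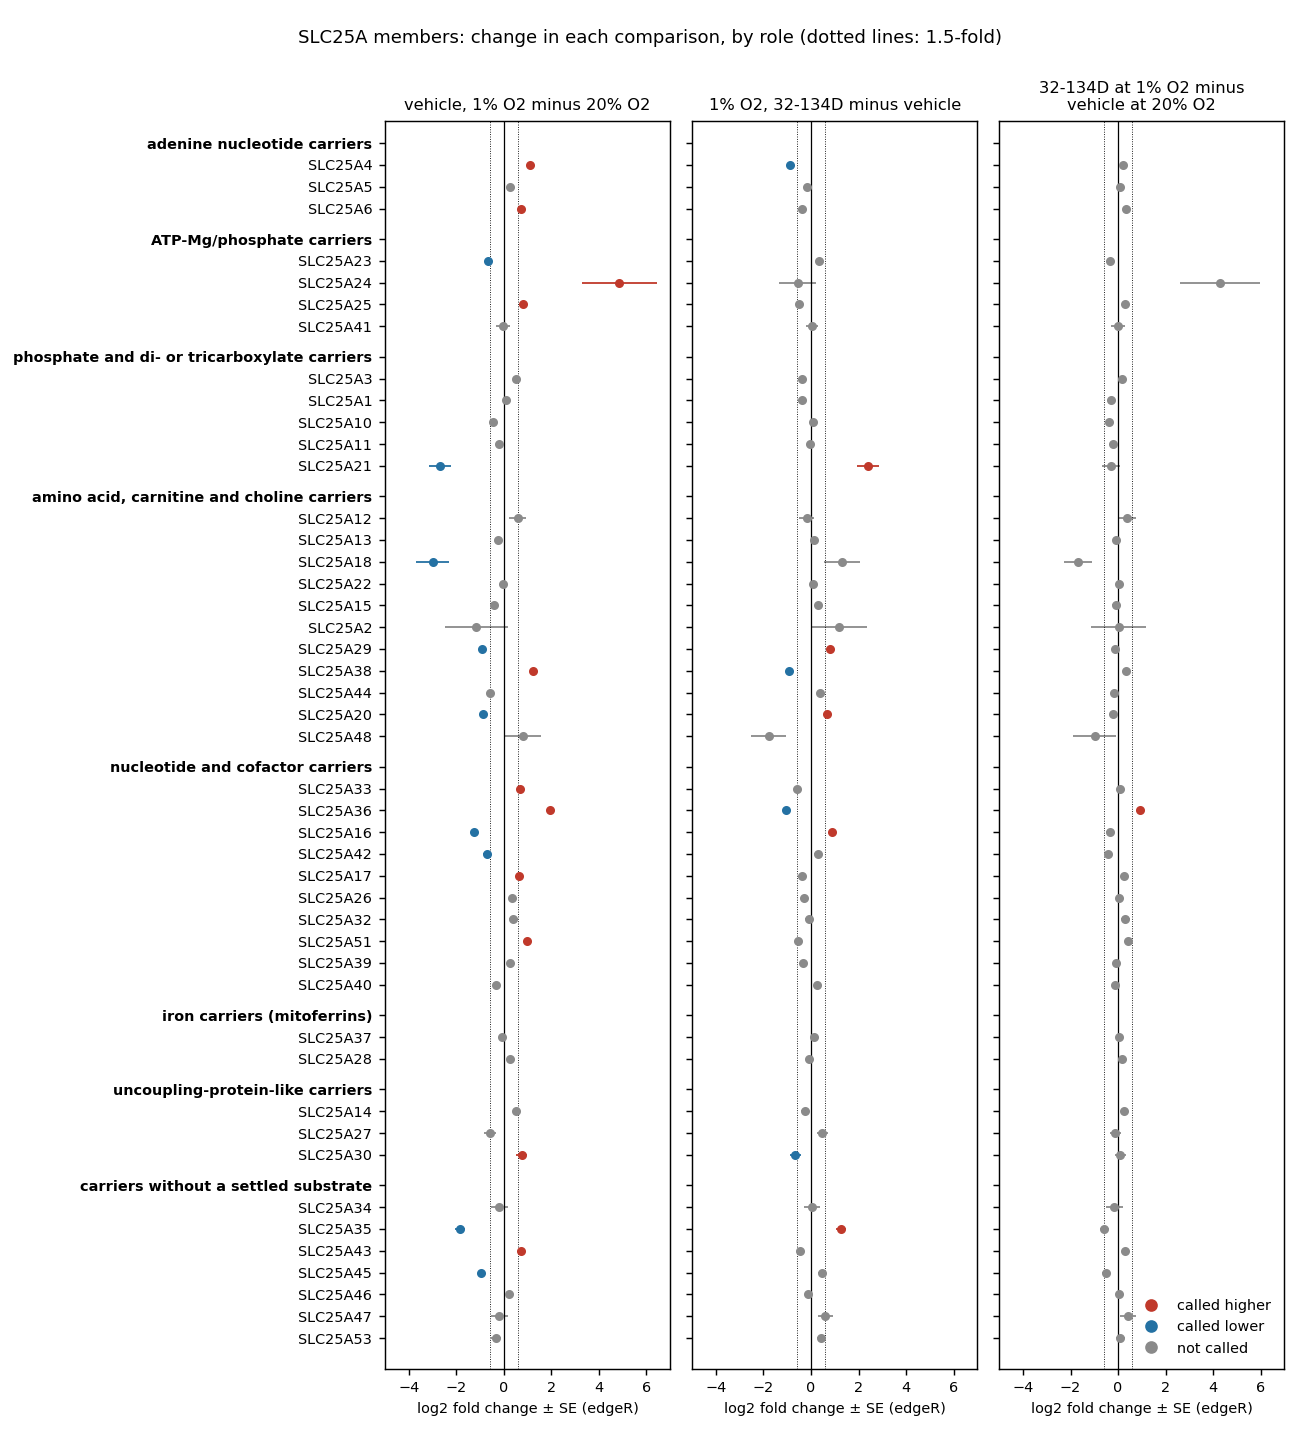
Log2 fold change ± SE from edgeR for 45 of the 46 members tested, by role, in vehicle at 1% against 20% O2, in 32-134D against vehicle at 1% O2 and in 32-134D at 1% O2 against vehicle at 20% O2, with red for called higher, blue for called lower, grey for not called and dotted lines at a fold change of 1.5. SLC25A36 is the single member called in the panel of 32-134D against 20% O2. With scaling by total counts 7 of the 46 members are called higher and 13 lower under hypoxia in place of 12 and 9. Of all 22672 genes, 3081 are then called higher and 5848 lower.

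The adenine nucleotide carriers exchange ATP made in the matrix for cytosolic ADP. SLC25A4, the form typical of heart and muscle, had 34.8, 31.6 and 28.9 CPM in vehicle at 20% O2, 65.02, 70.5 and 65.99 CPM in vehicle at 1% O2 and 36.7, 36.8 and 36.6 CPM with 32-134D. Every library of vehicle at 1% O2 lay above every library of the other 2 groups. SLC25A4 rose 2.12-fold under hypoxia (log2 fold change 1.09 ± 0.084 (SE), adjusted p = 5.01e-08) and was 1.83-fold lower with 32-134D (log2 fold change -0.87 ± 0.081 (SE), adjusted p = 6.5e-07). SLC25A6, found in most tissues, had 184, 175 and 169 CPM in vehicle at 20% O2, 255, 308 and 309 CPM in vehicle at 1% O2 and 199, 200.1 and 265 CPM with 32-134D. The hypoxic vehicle libraries were again all above those at 20% O2, but replicate 3 of 32-134D reached the range of the hypoxic vehicle. SLC25A6 rose 1.65-fold under hypoxia (log2 fold change 0.72 ± 0.109 (SE), adjusted p = 4.68e-05), a call that was lost with scaling by total counts (log2 fold change 0.51). With 32-134D its log2 fold change was -0.40 ± 0.108 (SE), past the FDR (adjusted p = 0.00719) but under 1.5-fold. SLC25A5 had 258, 231 and 223 CPM in vehicle at 20% O2, 255, 296 and 304 CPM in vehicle at 1% O2 and 252, 242 and 269 CPM with 32-134D. Its groups overlapped, and it was not called in either comparison, with log2 fold changes of 0.27 ± 0.084 and -0.16 ± 0.084 (SE; adjusted p = 0.0153 and 0.126).

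As parts of the summed adenine nucleotide carriers, counted per kb of exons, the 3 genes were set against each other. SLC25A4 held 2.71, 2.7 and 2.57% in vehicle at 20% O2, 4.46, 4.11 and 3.79% in vehicle at 1% O2 and 2.83, 2.902 and 2.44% with 32-134D. SLC25A5 held 65.04, 63.7 and 63.9%, 56.4, 55.7 and 56.4% and 62.8, 61.8 and 57.99% in the same order of groups, and SLC25A6 held 32.2, 33.6 and 33.6%, 39.1, 40.2 and 39.8% and 34.4, 35.4 and 39.6%. The hypoxic vehicle libraries did not overlap those at 20% O2 for any of the 3. The difference was 1.46 percentage points for SLC25A4, -8.02 for SLC25A5 and 6.57 for SLC25A6, each with p = 0.1 in a two-sided exact permutation test, the smallest p that 3 against 3 libraries allow, and 0.165 after adjustment over the 33 share tests run. No share could therefore pass 0.05 in this design. Without division by length the SLC25A4 share differed by 3.37 points, since its exons are the longest of the 3.

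**Figure D3:**
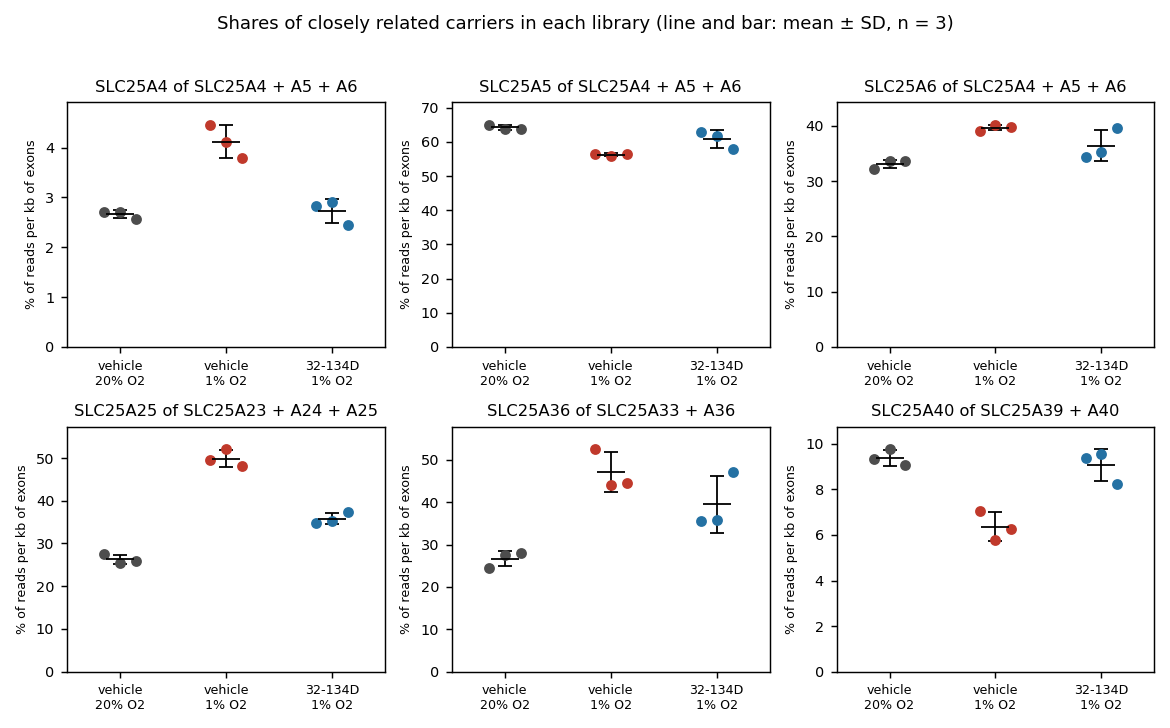
Share of each named carrier in the summed reads per kb of exons of its closest relatives (y axis, percent) in each library, with a line at the mean and a bar of ± SD (n = 3) for the 3 groups on the x axis. For SLC25A4, SLC25A6, SLC25A25 and SLC25A36 the 3 hypoxic vehicle libraries lie above those at 20% O2, for SLC25A5 and SLC25A40 below them.

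The ATP-Mg/phosphate carriers set the total adenine nucleotide content of the matrix and answer to cytosolic calcium. SLC25A25 had 52.9, 54.3 and 56.7 CPM in vehicle at 20% O2, 91.7, 106 and 91.5 CPM in vehicle at 1% O2 and 73.3, 71.5 and 56.02 CPM with 32-134D, with the hypoxic vehicle above all other libraries. It rose 1.76-fold under hypoxia (log2 fold change 0.82 ± 0.102 (SE), adjusted p = 6.94e-06). With 32-134D its log2 fold change was -0.52 ± 0.099 (SE), past the FDR (adjusted p = 0.000459) and under 1.5-fold. SLC25A23, a relative with the same substrates, had 138, 156 and 159.7 CPM in vehicle at 20% O2, 91.95, 96.2 and 97.2 CPM in vehicle at 1% O2 and 135, 129.5 and 92.7 CPM with 32-134D. The hypoxic vehicle lay below all libraries at 20% O2, and replicate 3 of 32-134D fell within the hypoxic vehicle's range. SLC25A23 was 1.59-fold lower under hypoxia (log2 fold change -0.67 ± 0.115 (SE), adjusted p = 0.000162) and was not called with 32-134D (log2 fold change 0.33 ± 0.114 (SE), adjusted p = 0.0292). Of the summed reads per kb of the group, SLC25A25 held 27.5, 25.5 and 25.9% in vehicle at 20% O2, 49.5, 52.03 and 48.1% in vehicle at 1% O2 and 34.9, 35.2 and 37.3% with 32-134D. The 3 groups did not overlap (exact p = 0.1, adjusted 0.165, for hypoxia and for 32-134D), and SLC25A23 held nearly all of the remainder.

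SLC25A24 had few reads, with 0, 0 and 0 counts in vehicle at 20% O2, 6, 5 and 1 counts in vehicle at 1% O2 and 3, 3 and 2 counts with 32-134D. It passed the thresholds for a rise under hypoxia (adjusted p = 0.0204). Set against a floor of 3 counts for the 3 libraries at 20% O2, its 12 counts came to a 2.42-fold ratio. That ratio leaves out the counting error of the 12. The call of a rise was lost with DESeq2, with the replicate number in the model and without replicate 3 of vehicle at 20% O2 (fitted log2 fold changes of 3.40, 4.50 and 4.80). SLC25A41, a form without the calcium-binding part, stayed between 0.769 and 1.14 CPM in all libraries and was not called.

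Among carriers of phosphate and carboxylates, SLC25A21 stood out. It carries 2-oxoadipate, an intermediate of lysine and tryptophan breakdown, and had 0.861, 0.942 and 1.28 CPM in vehicle at 20% O2, 0.05301, 0.33 and 0.173 CPM in vehicle at 1% O2 and 0.879, 1.04 and 0.686 CPM with 32-134D. These values rest on 12, 6 and 42 counts in vehicle at 20% O2, 2, 7 and 5 counts in vehicle at 1% O2 and 31, 31 and 15 counts with 32-134D. Vehicle at 1% O2 was below every other library, while the libraries at 20% O2 and with 32-134D overlapped. SLC25A21 was 6.42-fold lower under hypoxia (log2 fold change -2.68 ± 0.473 (SE), adjusted p = 0.000198) and 5.23-fold higher with 32-134D (log2 fold change 2.39 ± 0.457 (SE), adjusted p = 0.000519). At the depth of the smallest library the hypoxia call was lost (log2 fold change -1.60). The exons of SLC25A21 overlap those of SLC25A21-AS1 (15.8% of their bases) and of PAX9 (13%) on the opposite strand, and since the strand setting of the counting is not given in the sources used here, reads of these genes cannot be told apart there.

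SLC25A3 had 331, 297 and 301 CPM in vehicle at 20% O2, 431, 454 and 442 CPM in vehicle at 1% O2 and 356, 339 and 337 CPM with 32-134D, with all hypoxic vehicle libraries above all others. Its log2 fold change was 0.51 ± 0.068 (SE) under hypoxia (adjusted p = 1.22e-05) and -0.36 ± 0.067 with 32-134D (adjusted p = 0.000405), both under 1.5-fold and so not called. SLC25A1, the citrate carrier that feeds fatty acid synthesis, was at 173 ± 8.68, 184 ± 19.6 and 140.3 ± 25.7 CPM (SD, n = 3) in vehicle at 20% O2, vehicle at 1% O2 and 32-134D and was not called. SLC25A10, which exchanges malate and succinate for phosphate, had a log2 fold change of -0.44 ± 0.107 (SE) under hypoxia (adjusted p = 0.00275), again under 1.5-fold. With scaling by total counts it was called lower (-0.66). SLC25A11, the oxoglutarate carrier of the malate-aspartate shuttle, was not called (-0.19 ± 0.094 under hypoxia and -0.039 ± 0.092 with 32-134D).

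Of 11 carriers of amino acids, carnitine and choline tested, 1 was called higher and 3 lower under hypoxia, beside 19.5% and 20.3% of all genes. SLC25A38 brings glycine into the matrix for the first step of heme synthesis and had 30.6, 31.4 and 28.8 CPM in vehicle at 20% O2, 73.6, 69.97 and 69.3 CPM in vehicle at 1% O2 and 41.8, 37.5 and 32.97 CPM with 32-134D. Every hypoxic vehicle library was above every other library. SLC25A38 rose 2.35-fold under hypoxia (log2 fold change 1.24 ± 0.092 (SE), adjusted p = 3.46e-08) and was 1.89-fold lower with 32-134D (log2 fold change -0.92 ± 0.088 (SE), adjusted p = 9.11e-07). SLC25A29, a carrier of basic amino acids, showed the reverse order, with 104, 103 and 108 CPM in vehicle at 20% O2, 59.2, 56.95 and 50.4 CPM in vehicle at 1% O2 and 88.01, 86.9 and 117 CPM with 32-134D. The hypoxic vehicle was below all other libraries, and replicate 3 of 32-134D was the highest of its group. SLC25A29 was 1.90-fold lower under hypoxia (log2 fold change -0.92 ± 0.107 (SE), adjusted p = 3.53e-06) and 1.75-fold higher with 32-134D (log2 fold change 0.81 ± 0.106 (SE), adjusted p = 1.84e-05). Without that replicate the change with 32-134D was 0.66 on the log2 scale and was still called.

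SLC25A20 exchanges acylcarnitines for carnitine, the step by which long-chain fatty acids enter the matrix for oxidation. It had 18, 18.1 and 18.6 CPM in vehicle at 20% O2, 9.86, 8.44 and 10.96 CPM in vehicle at 1% O2 and 16.3, 16.8 and 13.7 CPM with 32-134D, and again the hypoxic vehicle lay below every other library. SLC25A20 was 1.86-fold lower under hypoxia (log2 fold change -0.90 ± 0.122 (SE), adjusted p = 1.69e-05) and 1.60-fold higher with 32-134D (log2 fold change 0.68 ± 0.118 (SE), adjusted p = 0.000249). SLC25A44, a carrier of branched-chain amino acids, had 69.4, 78.98 and 78.7 CPM in vehicle at 20% O2, 50.4, 52.3 and 49.1 CPM in vehicle at 1% O2 and 70.9, 69.96 and 58.5 CPM with 32-134D. The hypoxic vehicle was lowest, and the log2 fold change of -0.58 ± 0.088 (SE) came to 1.495-fold, just under the threshold, and SLC25A44 was called lower with DESeq2 (-0.63). SLC25A18, one of the glutamate carriers, had 5, 2 and 9 counts in vehicle at 20% O2, 1, 1 and 1 counts in vehicle at 1% O2 and 3, 3 and 2 counts with 32-134D. It was called lower under hypoxia (adjusted p = 0.00189), and the ratio of its counts, 3 against 16 and corrected for library size, was 0.114 with an exact 95% interval of 0.0212 to 0.397 that covers counting error only. With 32-134D SLC25A18 was not called (adjusted p = 0.195), and the same ratio was 2.70 with an interval of 0.648 to 15.8.

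The remaining 6 carriers of this role were not called in any comparison. SLC25A13 (citrin), the aspartate/glutamate carrier of liver, was at 98.2 ± 3.24, 83.8 ± 1.73 and 91.5 ± 12.5 CPM (SD, n = 3) in vehicle at 20% O2, vehicle at 1% O2 and 32-134D. Its relative SLC25A12 (aralar), the form of brain and muscle, lay between 0.395 and 0.9604 CPM, and SLC25A13 held over 99% of the pair's reads per kb, with a lowest share of 99.1%. SLC25A22, the other glutamate carrier, ranged from 31.0 to 36.2 CPM in the 9 libraries. SLC25A15, the ornithine carrier of the urea cycle, had a log2 fold change of -0.41 ± 0.138 (SE) under hypoxia, under 1.5-fold. SLC25A2 had 0 to 3 counts per library. The choline carrier SLC25A48 had 2, 1 and 3 counts in vehicle at 20% O2, 9, 6 and 3 counts in vehicle at 1% O2 and 3, 2 and 0 counts with 32-134D, and with 32-134D its log2 fold change was -1.78 ± 0.743 (SE; adjusted p = 0.063). It was called lower there without replicate 3 of vehicle at 1% O2 (-2.03).

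Nucleotide and cofactor carriers held the largest rise among members with more than 3 counts in each group. SLC25A36, a carrier of pyrimidine nucleotides, had 31.98, 31.2 and 34.7 CPM in vehicle at 20% O2, 146, 121 and 116 CPM in vehicle at 1% O2 and 58.9, 58 and 68.1 CPM with 32-134D. The 3 groups did not overlap, with the hypoxic vehicle highest and 32-134D between. SLC25A36 rose 3.89-fold under hypoxia (log2 fold change 1.96 ± 0.102 (SE), adjusted p = 9.28e-10) and was 2.07-fold lower with 32-134D (log2 fold change -1.05 ± 0.095 (SE), adjusted p = 5.49e-07). None of the 75-base windows of its exons occurs in another gene's exons. SLC25A33, the other pyrimidine nucleotide carrier, had 36.7, 30.8 and 33.5 CPM in vehicle at 20% O2, 49.4, 57.4 and 53.8 CPM in vehicle at 1% O2 and 40.2, 38.95 and 28.5 CPM with 32-134D, with the hypoxic vehicle above all other libraries. SLC25A33 rose 1.58-fold under hypoxia (log2 fold change 0.66 ± 0.120 (SE), adjusted p = 0.000263), a call lost with scaling by total counts (0.45) and with a filter of 10 counts in every library (0.55). With 32-134D its log2 fold change of -0.57 ± 0.116 (SE) was past the FDR (adjusted p = 0.000855) and 1.49-fold, just under the threshold. Of the pair's reads per kb, SLC25A36 held 24.6, 27.5 and 27.9% in vehicle at 20% O2, 52.5, 44.1 and 44.6% in vehicle at 1% O2 and 35.4, 35.8 and 47.2% with 32-134D. The difference under hypoxia was 20.4 percentage points without overlap (exact p = 0.1, adjusted 0.165), and the groups with and without 32-134D at 1% O2 overlapped through replicate 3 of 32-134D. These shares are over the union of exons, and their size depends on the length used. Per kb of the principal transcript, SLC25A36 and SLC25A33 were at 7.04 ± 0.392 and 8.74 ± 0.771 CPM in vehicle at 20% O2. In vehicle at 1% O2 they were at 27.5 ± 3.45 and 13.9 ± 1.04 CPM per kb (SD, n = 3).

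SLC25A16 and SLC25A42 are both linked to the entry of coenzyme A into the matrix, and both were called lower under hypoxia. SLC25A16 had 22.9, 18.8 and 19.4 CPM in vehicle at 20% O2, 9.97, 7.17 and 8.4 CPM in vehicle at 1% O2 and 17.5, 16.6 and 13.8 CPM with 32-134D, with the hypoxic vehicle below every other library. It was 2.39-fold lower under hypoxia (log2 fold change -1.25 ± 0.140 (SE), adjusted p = 2.3e-06) and 1.87-fold higher with 32-134D (log2 fold change 0.90 ± 0.136 (SE), adjusted p = 6.71e-05). SLC25A42 had 32.8, 38.3 and 36.1 CPM in vehicle at 20% O2, 20.9, 23.3 and 21.4 CPM in vehicle at 1% O2 and 31.4, 29.8 and 18.8 CPM with 32-134D. In vehicle at 1% O2 it was below all libraries at 20% O2, while replicate 3 of 32-134D was lower still. SLC25A42 was 1.63-fold lower under hypoxia (log2 fold change -0.71 ± 0.152 (SE), adjusted p = 0.00104) and not called with 32-134D (log2 fold change 0.30 ± 0.148 (SE), adjusted p = 0.117). SLC25A17, which carries coenzyme A and other cofactors in peroxisomes, was called higher under hypoxia, from 18.3 ± 1.98 to 28.2 ± 1.14 CPM (SD, n = 3), 1.56-fold (log2 fold change 0.64 ± 0.098 (SE), adjusted p = 5.37e-05). At a fold change this near the threshold, the call was lost with scaling by total counts, with the filter of 10 counts in every library, at the smallest library's depth and without replicate 1 of vehicle at 20% O2 (log2 fold changes of 0.43, 0.53, 0.54 and 0.52).

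SLC25A51 brings NAD into the matrix. It had 11.3, 12.2 and 10.7 CPM in vehicle at 20% O2, 22.5, 20.04 and 24.1 CPM in vehicle at 1% O2 and 15.1, 15.9 and 14.04 CPM with 32-134D, with the hypoxic vehicle above the other groups and 32-134D between. SLC25A51 rose 1.97-fold under hypoxia (log2 fold change 0.98 ± 0.110 (SE), adjusted p = 2.49e-06), and with 32-134D its log2 fold change was -0.57 ± 0.103 (SE; adjusted p = 0.000324), 1.48-fold and so just under the threshold. Its near-identical relative SLC25A52 had 3 counts in all, and 10.3% of SLC25A51's windows of 75 bases occur in other genes.

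SLC25A39, SLC25A40, SLC25A26 and SLC25A32 were not called. SLC25A39 and SLC25A40, related proteins of which SLC25A39 is linked to glutathione import, had log2 fold changes of 0.25 ± 0.071 and -0.35 ± 0.111 (SE) under hypoxia (adjusted p = 0.00784 and 0.015), both under 1.5-fold. Their signs were opposite, and SLC25A40 held 9.32, 9.76 and 9.09% of the pair's reads per kb in vehicle at 20% O2, 7.05, 5.8 and 6.26% in vehicle at 1% O2 and 9.38, 9.54 and 8.25% with 32-134D. The hypoxic vehicle did not overlap either other group (exact p = 0.1, adjusted 0.165). SLC25A26, the S-adenosylmethionine carrier, had a log2 fold change of 0.36 ± 0.111 (SE) under hypoxia and -0.30 ± 0.106 with 32-134D. SLC25A32, the folate carrier, had 0.40 ± 0.179 and -0.089 ± 0.164.

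Mitoferrins bring iron into the matrix for heme and iron-sulfur clusters. Of the pair, 0 of 2 were called, also with DESeq2, and 0 had an unadjusted p below 0.05 in edgeR. Of all genes, 19.5% were called higher and 20.3% lower under hypoxia, and 16.2% and 13.7% with 32-134D. Under hypoxia 13240 of all 22672 genes had an unadjusted p below 0.05. With only 2 genes, a count of 0 does not set the pair apart from all genes. SLC25A37 (mitoferrin 1), the form of red cell precursors, was at 10.8 ± 1.105, 10.4 ± 0.814 and 11.4 ± 0.2304 CPM (SD, n = 3) in vehicle at 20% O2, vehicle at 1% O2 and 32-134D, with a log2 fold change of -0.061 ± 0.119 (SE) under hypoxia. SLC25A28 (mitoferrin 2) was at 11.1 ± 1.15, 13.3 ± 0.783 and 12.6 ± 1.55 CPM, with 0.25 ± 0.125 under hypoxia. A change of 1.5-fold in either direction lies more than 2 SE from both values.

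The carriers named for their likeness to uncoupling proteins were of low level. SLC25A30 had 4.23, 4.71 and 6.26 CPM in vehicle at 20% O2, 9.57, 9.01 and 7.99 CPM in vehicle at 1% O2 and 6.58, 6.77 and 3.29 CPM with 32-134D. The hypoxic vehicle was above all other libraries, and replicate 3 of 32-134D was below the rest of its group. SLC25A30 rose 1.69-fold under hypoxia (log2 fold change 0.76 ± 0.233 (SE), adjusted p = 0.0127) and was 1.58-fold lower with 32-134D (log2 fold change -0.66 ± 0.218 (SE), adjusted p = 0.0221). The call with 32-134D did not hold without replicate 3 of 32-134D (log2 fold change -0.41) and was lost in 8 of 14 alternatives, and that under hypoxia was lost with scaling by total counts (0.55) and without replicate 1 of vehicle at 20% O2 or of vehicle at 1% O2 (0.58 and 0.70). SLC25A14 (UCP5) and SLC25A27 (UCP4), both known from brain, were not called. SLC25A14 had a log2 fold change of 0.52 ± 0.155 (SE) under hypoxia (adjusted p = 0.0107), and was called higher in 2 of 14 alternatives (0.64 at the smallest library's depth and 0.67 without replicate 3 of vehicle at 20% O2). SLC25A27 had -0.60 ± 0.247 (adjusted p = 0.0553) and was called lower in 6 of 14, with log2 fold changes from -0.62 to -1.17.

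Of 7 members without a settled substrate, SLC25A35 changed most. It had 7.601, 9.26 and 9.31 CPM in vehicle at 20% O2, 2.09, 2.404 and 2.8 CPM in vehicle at 1% O2 and 7.23, 5.82 and 4.16 CPM with 32-134D. The hypoxic vehicle was below every other library. SLC25A35 was 3.59-fold lower under hypoxia (log2 fold change -1.84 ± 0.206 (SE), adjusted p = 2.34e-06) and 2.39-fold higher with 32-134D (log2 fold change 1.26 ± 0.201 (SE), adjusted p = 0.000113). Exons of RANGRF on the opposite strand cover 33.2% of its exon bases, where reads of both cannot be told apart, and RANGRF had 4536 counts in all. SLC25A45 had 32.5, 38.5 and 33.4 CPM in vehicle at 20% O2, 18.6, 16.2 and 18.2 CPM in vehicle at 1% O2 and 26.9, 27.2 and 18.02 CPM with 32-134D. Vehicle at 1% O2 was below the libraries at 20% O2 and reached up to replicate 3 of 32-134D. SLC25A45 was 1.95-fold lower under hypoxia (log2 fold change -0.96 ± 0.140 (SE), adjusted p = 3.17e-05) and not called with 32-134D (log2 fold change 0.45 ± 0.137 (SE), adjusted p = 0.0143), though it was called higher there without replicate 3 of 32-134D (0.61). SLC25A43 rose 1.66-fold under hypoxia, from 6.15 ± 0.513 to 10.2 ± 0.932 CPM (SD, n = 3; log2 fold change 0.73 ± 0.135 (SE), adjusted p = 0.0003), a call lost with scaling by total counts (0.52) and at the smallest library's depth (0.46).

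SLC25A46, an outer membrane protein of mitochondrial division rather than a transporter, ranged from 30.0 to 45.3 CPM and was not called. SLC25A47, known as a carrier of liver, was at 0.614 ± 0.0349, 0.552 ± 0.0959 and 0.827 ± 0.252 CPM (SD, n = 3) in the 3 groups and not called. SLC25A34 and SLC25A53 were not called either, with log2 fold changes of -0.20 ± 0.349 and -0.34 ± 0.202 (SE) under hypoxia.

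**Figure D4:**
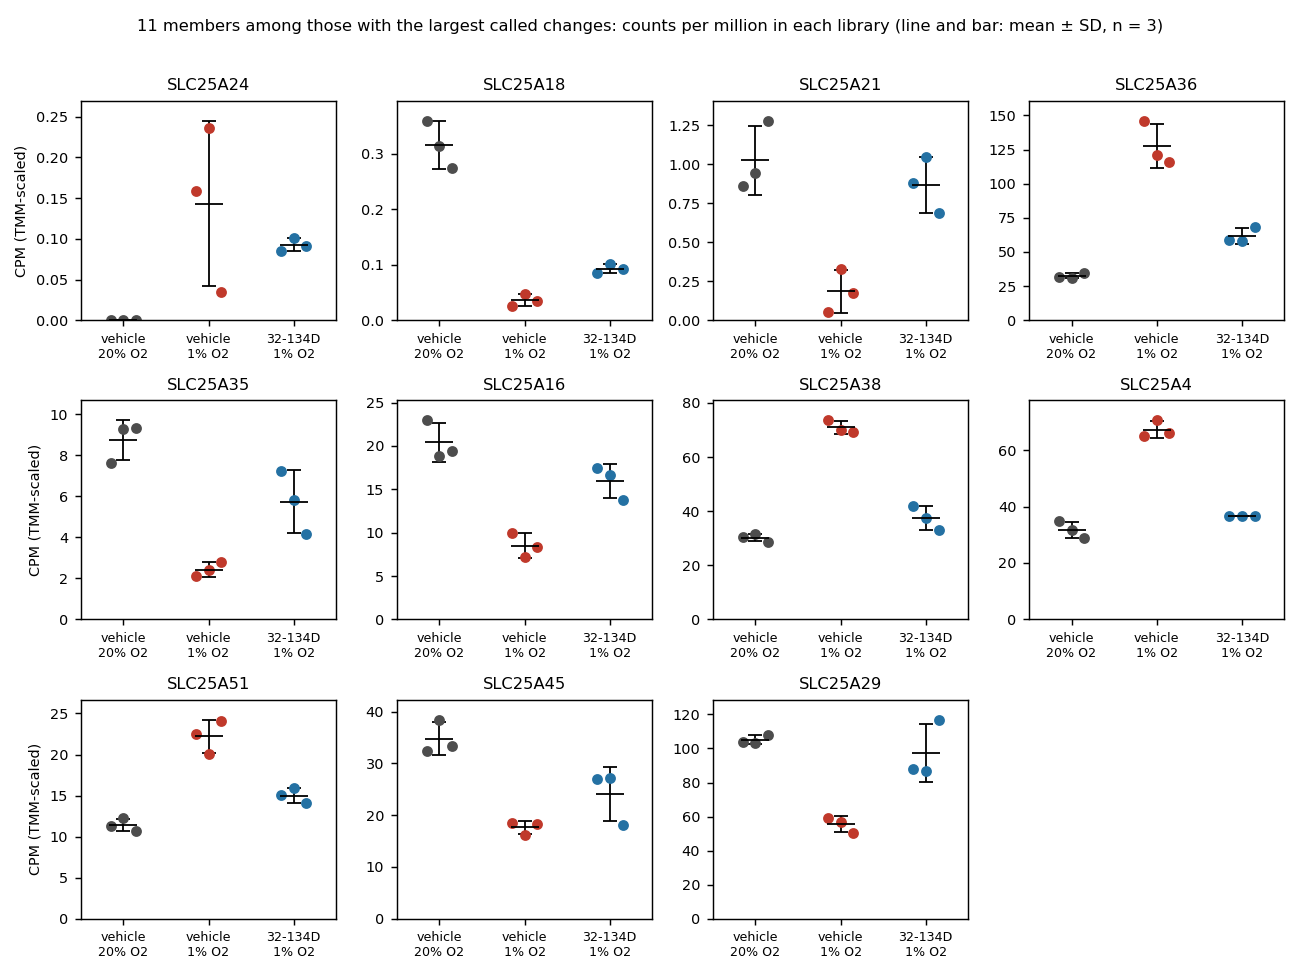
CPM in each of the 9 libraries (points, y axis from 0) for 11 members among those with the largest called changes in hypoxia or with 32-134D, with a line at the mean and a bar of ± SD (n = 3) in each group. In vehicle at 1% O2, SLC25A36, SLC25A38, SLC25A4 and SLC25A51 lie above and SLC25A18, SLC25A21, SLC25A35, SLC25A16 and SLC25A29 below both other groups. Of these, SLC25A18 and SLC25A51 were not called with 32-134D.

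How far members with 32-134D at 1% O2 lay from their level in vehicle at 20% O2 was read from the third comparison. Of 46 members 1 was called higher and 0 lower, beside 3.0% and 0.516% of all genes. DESeq2 gave the same counts, 1 and 0. At an unadjusted p below 0.05 in edgeR 10 members were higher and 9 lower, beside 5584 of all 22672 genes in either direction. The member called was SLC25A36, at 61.7 ± 5.58 CPM with 32-134D against 32.6 ± 1.82 CPM at 20% O2 (SD, n = 3), 1.88-fold (log2 fold change 0.91 ± 0.101 (SE), adjusted p = 4.64e-05). It was called under every alternative except a threshold of 2-fold. Among members past the FDR but under 1.5-fold, SLC25A51 and SLC25A38 had log2 fold changes of 0.41 ± 0.111 and 0.32 ± 0.093 (SE), and SLC25A45 and SLC25A10 had -0.52 ± 0.138 and -0.37 ± 0.107. SLC25A35 and SLC25A45 were called lower without replicate 1 of 32-134D (-0.79 and -0.60), and SLC25A45 without replicate 2 (-0.62). For a member that was not called here, the data do not show that its level was the same as at 20% O2.

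Genes around the carriers were described by lists written with earlier results of these data known. Of 12 family members under other names and other inner-membrane transporters, 11 were tested, and 2 were called higher and 4 lower under hypoxia (median 0.058; 3 lower with DESeq2), beside 19.5% and 20.3% of all genes. With 32-134D 2 were called higher and 2 lower, beside 16.2% and 13.7%. UCP1, the uncoupling protein of brown fat, had 2, 2 and 7 counts in vehicle at 20% O2, 73, 38 and 47 counts in vehicle at 1% O2 and 15, 2 and 12 counts with 32-134D. It rose 8.45-fold under hypoxia (log2 fold change 3.08 ± 0.504 (SE), adjusted p = 0.000101) and was 5.25-fold lower with 32-134D (log2 fold change -2.39 ± 0.404 (SE), adjusted p = 0.000183). SFXN2, a sideroflexin, had 12.5, 16.02 and 14.4 CPM in vehicle at 20% O2, 2.17, 2.22 and 2.49 CPM in vehicle at 1% O2 and 12, 10.7 and 9.101 CPM with 32-134D, with the hypoxic vehicle far below the other groups (log2 fold change -2.63 ± 0.155 (SE), adjusted p = 3.26e-09; with 32-134D log2 fold change 2.21 ± 0.152 (SE), adjusted p = 4.05e-08). SFXN5 was also called lower and SFXN3 higher (-1.78 ± 0.121 and 0.71 ± 0.10, SE), each called in the opposite direction with 32-134D (1.27 ± 0.119 and -0.68 ± 0.096). SFXN1, a serine carrier, and SFXN4 were not called (0.57 ± 0.077 and 0.16 ± 0.127 under hypoxia). Of the mitochondrial pyruvate carrier's subunits, MPC1 was called lower (-0.67 ± 0.251) and MPC2 was not (-0.025 ± 0.163). UCP3 was called lower (-0.88 ± 0.314), UCP2 had 4 counts in all, and MTCH1 and MTCH2 were not called.

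**Figure D5:**
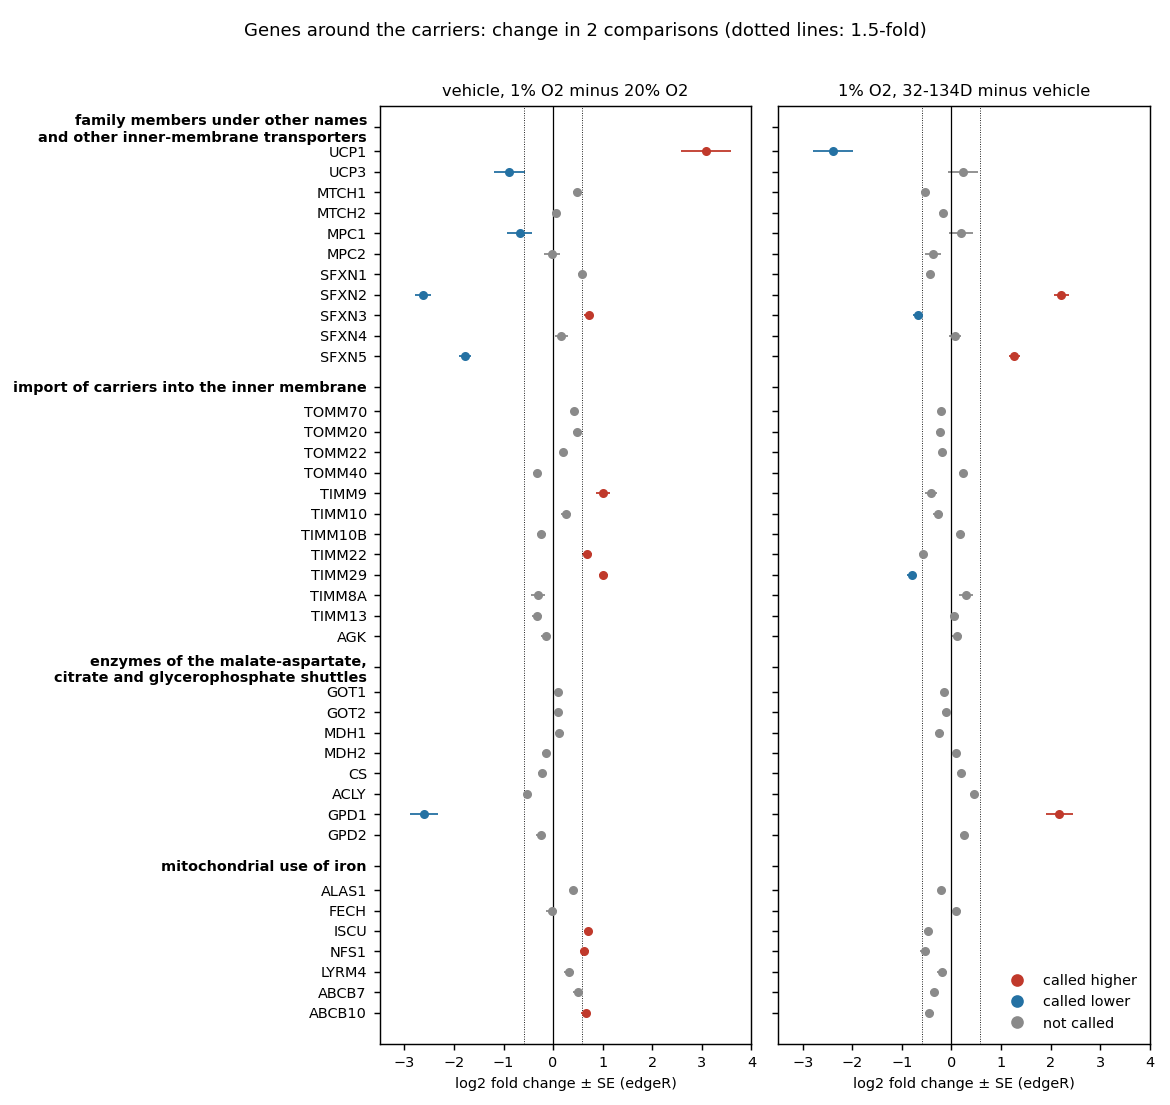
Log2 fold change ± SE from edgeR (x axis) for tested genes of 4 lists around the carriers, in vehicle at 1% against 20% O2 and in 32-134D against vehicle at 1% O2, with red for called higher, blue for called lower, grey for not called and dotted lines at a fold change of 1.5. UCP1 (3.08 and -2.39), SFXN2 (-2.63 and 2.21) and GPD1 (-2.61 and 2.17) lie farthest from 0 in both panels.

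Carriers are made in the cytosol and reach the inner membrane through the outer membrane pore, the small TIM chaperones and the TIM22 complex. Of 12 genes of this route, 3 were called higher under hypoxia and 0 lower (median 0.24), beside 19.5% and 20.3% of all genes. DESeq2 gave the same counts. At an unadjusted p below 0.05 in edgeR 7 were higher and 3 lower, beside 13240 of all 22672 genes in either direction. TIMM29, a subunit of the TIM22 complex, had 43.8, 34.2 and 39.1 CPM in vehicle at 20% O2, 78.5, 81.9 and 78.1 CPM in vehicle at 1% O2 and 45.2, 48.5 and 42.8 CPM with 32-134D and rose 2.02-fold (log2 fold change 1.02 ± 0.090 (SE), adjusted p = 2.05e-07). It was the 1 gene of the list called lower with 32-134D (log2 fold change -0.80 ± 0.087 (SE), adjusted p = 2.9e-06). None was called higher there, beside 13.7% of all genes called lower and 16.2% higher. TIMM9, a small chaperone, and TIMM22, the channel, also rose under hypoxia (log2 fold changes 1.01 ± 0.133 and 0.68 ± 0.092, SE).

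Of 8 enzymes that work with the carriers in the malate-aspartate, citrate and glycerophosphate shuttles, GPD1, the cytosolic glycerol-3-phosphate dehydrogenase, was called, lower under hypoxia (log2 fold change -2.61 ± 0.284 (SE), adjusted p = 1.74e-06) and higher with 32-134D (log2 fold change 2.17 ± 0.275 (SE), adjusted p = 1.33e-05). It had 5.24, 4.71 and 4.11 CPM in vehicle at 20% O2, 0.636, 0.6601 and 0.968 CPM in vehicle at 1% O2 and 4.34, 3.602 and 2.15 CPM with 32-134D. GOT1, GOT2, MDH1, MDH2, CS, ACLY and GPD2 were not called in these comparisons, with log2 fold changes from -0.52 to 0.12 under hypoxia. The list had 0 higher and 1 lower under hypoxia, beside 19.5% and 20.3% of all genes. With 32-134D it had 1 higher and 0 lower, beside 16.2% and 13.7%. Of 8 genes of mitochondrial iron use, 3 were called higher and 1 lower under hypoxia, beside 19.5% and 20.3% of all genes. Those called higher were ISCU, NFS1 and ABCB10 (0.70 ± 0.080, 0.63 ± 0.093 and 0.66 ± 0.097, SE). With 32-134D 0 of these 8 were called, also with DESeq2, beside 16.2% of all genes called higher and 13.7% lower. At an unadjusted p below 0.05 in edgeR 1 was higher and 5 lower, beside 12051 of all 22672 genes in either direction.

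Several members share bases or sequence with other genes, which limits how far reads can be assigned to them. SLC25A25 overlaps SLC25A25-AS1 over 13.5% of its exon bases, and that antisense gene had 3246 counts in all. SLC25A26 overlaps LRIG1 over 15.5%, with 11747 counts, and SLC25A5 overlaps SLC25A5-AS1 over 15.1%, with 77 counts. SLC25A32 overlaps DCAF13 on the opposite strand over 11.1%, and DCAF13 had 10674 counts. SLC25A32 shares 69.7% of its exon bases, and SLC25A10 46.6%, with readthrough genes on the same strand that had 0 counts. How reads in such shared bases were counted is not given in the sources used here. The 0 counts therefore do not show that all these reads went to the members. Whether the counts and levels per kb of SLC25A32 and SLC25A10 were lowered by this was not tested. The table also held 43 genes named as pseudogenes of members, of which the most counted, SLC25A5P5, had 61 counts over the 9 libraries. SLC25A4, SLC25A6, SLC25A16 and SLC25A45, like SLC25A36, had no 75-base window in common with another gene. Copies of genes in the region that chromosome Y shares with X were left out of this search. Overlaps shorter than a window are also missed, and SLC25A45 overlaps AP000944.1 on the opposite strand over 69 bases.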

How the data were processed

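RNA of Hep3B cells was sequenced in 9 libraries, 3 per group. The authors deposited raw read counts per Ensembl gene, made per their methods with FastQC, Bbduk, STAR (Ensembl 100, GRCh38) and featureCounts; versions and strand setting are not given in the sources used here. Columns were matched to samples by the names in the labels, and 0 were left unmapped. Total counts were 6013980 to 40549699 per library, which limits genes of few counts.

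Genes with 10 or more counts over all libraries were compared with edgeR 4.0.16 (TMM, quasi-likelihood test, 1 fit of all 9 libraries) in R 4.3.3, with Benjamini-Hochberg adjustment over 22672 genes. Calls needed FDR below 0.05 and a fold change above 1.5. Labels describe replicates as biological, in wells of a plate, so p-values measure the spread between wells. DESeq2 1.42.0, other scalings, filters, thresholds and samples, a replicate block, thinning and leaving out each library were alternatives; principal transcript length was added after seeing the data. Groups at or under 3 counts were treated as at a floor. Shares of related genes used exon length from GENCODE 29 (GRCh38) and exact permutation tests. Promoters came from RefSeq (GRCh38.p14). Per-library values are given for 11 of the 12 members with the largest called changes, for groups of related members, and for SLC25A3, SLC25A20, SLC25A30, SLC25A42 and SLC25A44, added after their values were seen. The share of promoters with each motif was counted on both strands. Values of 2 genes are not reported here, though counts over lists include them. The procedure was tested on simulated counts in which few genes changed, so that test does not cover scaling where many genes change. Members and lists were chosen with earlier results of these data known.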

Additional observations from a re-analysis of the deposited data

How the results depend on the processing

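Of 32 calls of single members over the 3 comparisons, 23 held under every alternative that gave a value, other than a change of the fold threshold, and no value of a called member changed sign. Most calls that were lost lay near 1.5-fold. Over all values of single genes and shares under an alternative, 2084 kept their call or, for shares, stayed within the replicate SD. Signs were not compared where neither fit gave a call. SLC25A1 under hypoxia, not called, went from 0.092 to -0.124 with total library size. Of the other values, 31 gained a call, 33 lost one and 10 without a test moved by more than the replicate SD. Counts of members moved mainly with the threshold and with scaling by total library size. Under hypoxia (12 higher, 9 lower), a 2-fold threshold left 4 higher and 4 lower, no fold threshold gave 14 lower, and total library size gave 7 higher. Of all 22672 genes, the same settings gave 2449 higher and 3286 lower, 5814 lower, and 3081 higher. With 32-134D (5 higher, 5 lower), no fold threshold gave 8 and 15, a 2-fold threshold 2 and 1, and total library size 8 and 3. Of all 22672 genes, the same settings gave 4973 and 5788, 2451 and 1188, and 4755 and 1847. A filter of 10 counts in every library, a fit of only the 2 groups compared and thinning to the smallest library each left 3 lower. Of all genes, these left 1771 of 12912, 2623 of 21585 and 2115 of 18165 lower. Against vehicle at 20% O2 (1 higher, 0 lower), no fold threshold gave 4 and 2, a 2-fold threshold gave 0 higher, and leaving out 1 library gave 0 to 2 lower (2 without replicate 1 and 1 without replicate 2 of 32-134D). Of all genes, no fold threshold gave 1771 and 553, and a 2-fold threshold 283 higher. Leaving out replicate 1 or 2 of 32-134D gave 198 or 176 genes lower.

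The median of the members under hypoxia (0.022) was -0.024 with DESeq2 and with RLE scaling, -0.19 with total library size, 0.086 with 10 counts in every library, 0.060 with no filter, 0.090 with only the 2 groups, and -0.016 to 0.128 when 1 library was left out. With 32-134D (-0.057) it was 0.129 with total library size, 0.006 with 10 counts in every library, 0.012 after thinning, and -0.095 to 0.017 when 1 library was left out. Against vehicle at 20% O2 (0.047) it was 0.055 with DESeq2, 0.059 with RLE scaling, 0.021 with total library size and 0.077 with no filter. It was 0.002 to 0.054 when 1 library was left out. In these ranges the library left out was of the 2 groups compared, and the last median was 0.104 without replicate 3 of vehicle at 1% O2. The medians under hypoxia and with 32-134D changed sign, and the cause was not tested. With SLC25A24 set to its ratio against the floor of 3 counts, the median under hypoxia stayed at 0.022. The SLC25A4 share differed by 3.37 points under hypoxia and -3.29 with 32-134D without division by length, against 1.46 and -1.40.

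The replicate numbers of the labels did not pair the libraries, since same-numbered libraries had correlations of their deviations from -0.18 to 0.083. With a replicate block, 11 members were higher and 9 lower under hypoxia, 5 and 5 with 32-134D, and 1 and 0 against 20% O2. The smallest library held 6013980 counts, so members with few counts, such as SLC25A24, SLC25A18 and SLC25A21, are the least certain, and none of these 3 has a value under a filter of 10 counts in every library.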
